A study of Mus musculus with 6 samples.

Results

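Growth plate cartilage genes other than collagens were followed in mouse femur 21 days after local X-ray exposure. The 34 members, chosen by gene symbol as cartilage matrix proteins, Sox factors and parts of hedgehog and PTHrP signalling, are 34 of the 43346 genes in the deposited table, and the rule that names them uses no measured value. All 34 were found, 33 by symbol and Snorc through its gene ID under an older name, 3110079O15Rik. Both groups were C57BL/6 mice (a common inbred strain) aged 4 months. The radiated group is the right femur, given 24 Gy (the gray is the unit of absorbed dose) once at 6.6 Gy per minute over 5 mm of distal metaphysis, the marrow-rich shaft end next to the growth plate. The non-radiated group is the opposite femur of the irradiated animals, so it carried any effect that radiation had on the whole body. Each group has 3 RNA-seq libraries from bone cut out below the growth plate and stripped of muscle, and the labels name no step that removed marrow. The RNA was column-purified and made into libraries with a kit that keeps strand. Bone loss was seen at day 28, after this harvest. The labels do not say that replicates were separate mice, so p-values measure the spread between these libraries, which may in part be technical.

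In the growth plate, resting and proliferating chondrocytes lay down a matrix of collagen fibrils filled with aggrecan, under the control of the transcription factor Sox9 and its partners Sox5 and Sox6. Cells that stop dividing secrete Indian hedgehog (Ihh), which acts through the receptor Ptch1 and the factor Gli1 and induces parathyroid hormone-related protein (Pthlh). That protein acts on its receptor Pth1r to hold chondrocytes back from enlarging (hypertrophy), while Fgfr3 slows their growth. Several matrix genes among the members, such as Comp, Prg4, Cilp and Cilp2, are also made in articular cartilage, tendon, ligament or synovium.

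Promoter windows are shown for 3 members that passed a test below, Cytl1 and Papss2 (lower) and Matn4 (higher), so that the sequence next to the transcript start can be seen. The RefSeq promoter table (GRCm38.p6, the build of the mm10 named in the submitters' processing notes) held 39 windows for 26 of the 34 members. Each window printed is the 250 bases before the first transcribed base, read 5′ to 3′ on the gene's strand. That base is the gene's start in the deposited table for Cytl1 and Papss2, and its end for Matn4, which lies on the minus strand. Capitals mark a match to the Sox core AACAAT on either strand. The Cytl1 window is chr5:37735269-37735518 (plus strand), the Papss2 window chr19:32619755-32620004 (plus strand) and the Matn4 window chr2:164405161-164405410 (minus strand). The Matn4 window also covers part of a non-coding transcript of Rbpjl on the other strand.
Cytl1: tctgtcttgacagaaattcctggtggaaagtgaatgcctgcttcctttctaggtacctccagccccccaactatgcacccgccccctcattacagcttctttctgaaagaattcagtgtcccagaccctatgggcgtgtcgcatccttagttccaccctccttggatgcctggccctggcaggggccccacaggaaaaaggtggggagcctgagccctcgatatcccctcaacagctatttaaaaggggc
Papss2: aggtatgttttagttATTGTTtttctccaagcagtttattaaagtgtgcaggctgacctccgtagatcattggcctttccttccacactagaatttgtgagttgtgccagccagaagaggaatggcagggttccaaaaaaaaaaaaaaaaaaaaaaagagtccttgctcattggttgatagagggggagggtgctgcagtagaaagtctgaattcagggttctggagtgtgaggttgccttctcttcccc
Matn4: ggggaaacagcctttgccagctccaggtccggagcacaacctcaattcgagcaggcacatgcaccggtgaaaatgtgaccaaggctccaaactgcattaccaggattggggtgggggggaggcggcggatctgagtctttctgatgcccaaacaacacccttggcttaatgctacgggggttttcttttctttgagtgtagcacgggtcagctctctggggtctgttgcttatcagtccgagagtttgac
The Sox core was found in 4 of the 39 member windows, which belong to Cilp2, Papss2, Scin and Sox6, and in 9.42% of all 32851 windows of the same length. The Gli core GACCACCCA, searched on both strands, was in 0 member windows and in 0.225% of all windows. The 2 motifs share no letters that make one contain the other, and a match is a description of the letters only.

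The libraries held 34034251 to 48708383 gene counts. In non-radiated library 2 a single row, AY036118, held 32.9% of the counts, against 0.321% to 5.61% in the other 5. Skeletal muscle markers (10 genes) summed to 166, 299.5 and 140 CPM in non-radiated libraries 1, 2 and 3 and to 645, 2129 and 168 CPM in radiated libraries 1, 2 and 3. Of these 10 genes 0 were called, against 7.8% of all genes tested. With the replicate block described below 9 were called higher, against 5.51% of all genes tested. CPM is the count of a gene per 1000000 counts of its library, scaled by the trimmed mean of M-values (TMM). Cartilage was present in every library: all 8 defining markers (Col2a1, Acan, Sox9, Matn1, Matn3, Hapln1, Col9a1 and Col10a1) had counts in all 6, down to 3 counts of Matn1.

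Across the members, a small set of matrix genes was higher in the radiated femur, Cytl1 and a sulfation enzyme were lower, and the other members were not called. Of the 34 members 31 passed the filter on low counts, and 10 of these had a positive and 21 a negative log2 fold change (radiated over non-radiated). An estimate below 0 was found for 49.5% of the 18757 genes tested. By the quasi-likelihood test of edgeR at a Benjamini-Hochberg adjusted p under 0.05 over all genes, 5 of the 31 members were called, against 7.8% of all tested genes. Of these, 3 members were called higher (Comp, Matn4 and Cilp2), where 4.56% of all tested genes were, and 2 were called lower (Cytl1 and Chst11), where 3.24% were. The median log2 fold change of the 31 was -0.16, against 0.00 for all genes tested. With the replicate number as a block, a term that compares libraries of the same number, 9 members were called (background 8.9%), 5 higher (background 5.51%) and 4 lower (background 3.39%), the additions being Cilp and Prg4 higher and Ihh and Papss2 lower. Non-overlapping groups were found for 9 of the 31, or 29.0%, against 25.9% of all genes. No member was called lower without non-radiated library 1, non-radiated library 3 or radiated library 1 (background 1.9%, 3.17% and 1.71%). Without radiated library 2, 1 was called lower (background 2.42%), and without non-radiated library 2, 4 were (background 1.99%). Members called higher numbered 5 without radiated library 3 (background 4.85%). Without both libraries numbered 2, 2 members were called higher (background 2.36%) and 2 lower (background 1.74%).

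**Figure D1:**
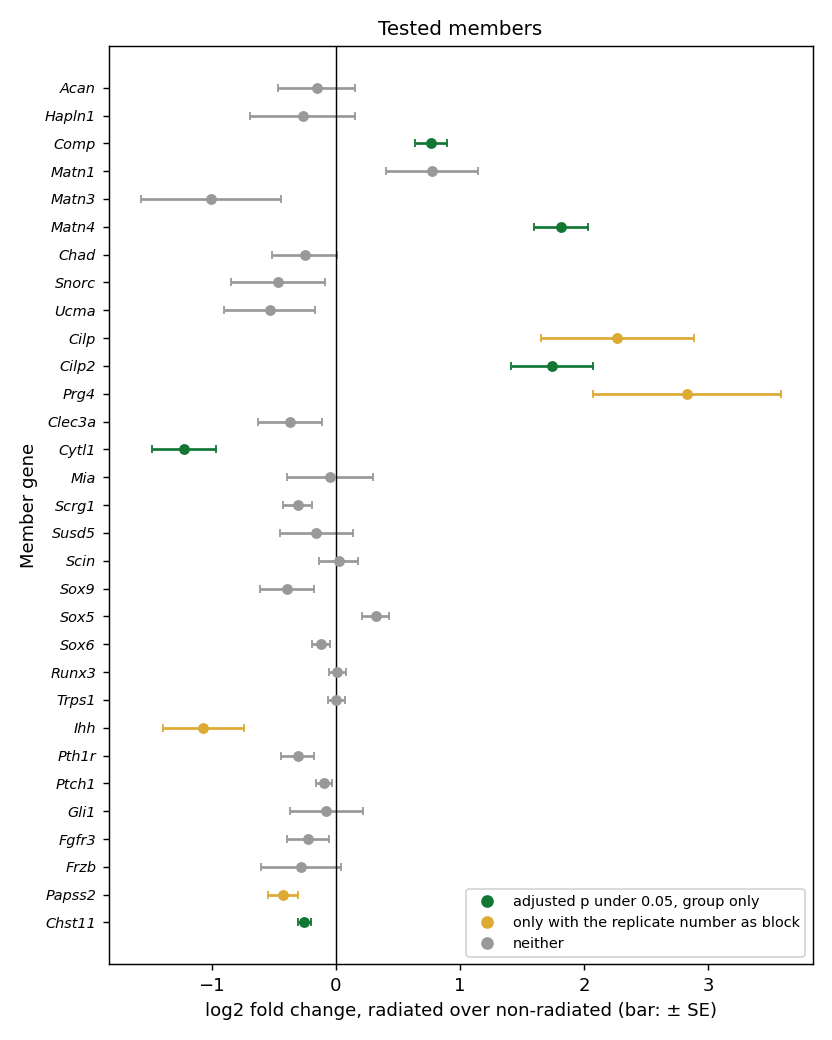
Log2 fold change (radiated over non-radiated, x axis) with its SE for the 31 tested members (y axis, grouped by role). Green points passed adjusted p under 0.05 with group as the only term, yellow points only with the replicate number as a block, and grey points neither. The calls higher are all matrix genes, while Cytl1 at -1.22 has the lowest estimate.

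The spread between libraries was the main feature of the core matrix genes. Acan, the large proteoglycan that gives cartilage its stiffness, was at 65.4, 27.5 and 53.5 CPM in non-radiated libraries 1, 2 and 3 and at 45.2, 28.7 and 58.6 CPM in radiated libraries 1, 2 and 3. The library numbered 2 was thus the lowest of each group, and the groups overlapped fully. Hapln1, the link protein that anchors aggrecan to hyaluronan, was at 60.6, 17.4 and 38.1 CPM without radiation and 29.0, 18.7 and 49.4 CPM with it. Chad, a leucine-rich repeat protein of cartilage matrix, was at 37.2, 18.2 and 36.6 CPM and at 29.1, 18.3 and 30.4 CPM in the same order. The same shape, with the second library low in both legs, was seen in all 3 genes. Their log2 fold changes were -0.15 (SE 0.31), -0.27 (SE 0.43) and -0.25 (SE 0.27), with edgeR adjusted p of 0.835, 0.782 and 0.655. With the muscle markers as a covariate the estimates were 0.39, 0.43 and 0.19, and without non-radiated library 1 those of Acan and Hapln1 were 0.11 and 0.21. Chad overlaps Acsf2 in the table (mean of 20.3 CPM, against 28.3 CPM for Chad), and whether the counting used strand is not given in the sources used here. In bulk tissue, fewer cartilage cells and less RNA per cartilage cell cannot be told apart. The bone was cut out below the growth plate, and how much cartilage stayed with each piece is not given. Its part in this spread was not tested.

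Counted over the 31 tested members, non-radiated library 2 was the lowest of the 6 libraries for 14 and radiated library 2 for 13. Together these hold the lowest value of 27 members, while they hold it for 33.3% of all tested genes. Non-radiated library 1 was the highest for 13 members and non-radiated library 3 for 9. The median coefficient of variation of the members was 20.2% among non-radiated and 21.3% among radiated libraries, against 8.98% and 7.93% for all tested genes. Non-radiated library 2 is the one with the large AY036118 share (32.9%). Radiated library 2 is the one with the lowest share (0.321%) and with the most muscle counts. The part of the AY036118 share in the low cartilage values was not tested.

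**Figure D2:**
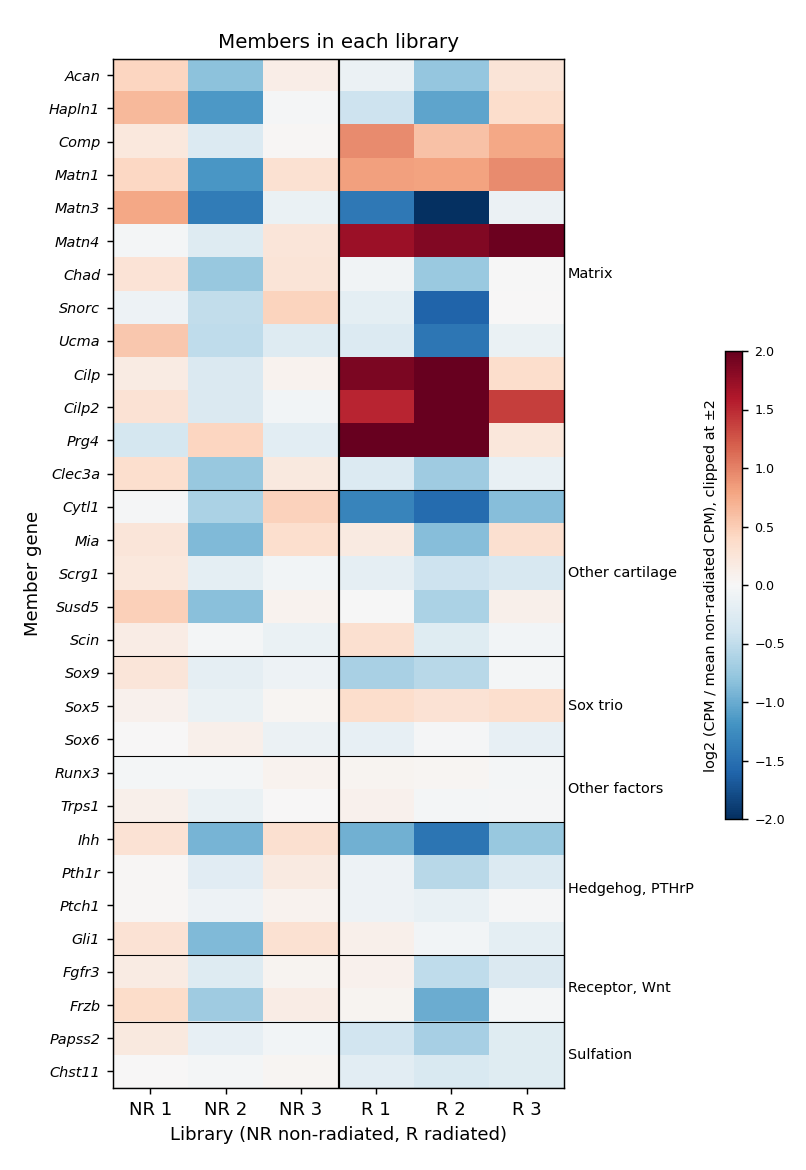
Each row is a tested member, grouped by role, and each column a library (NR non-radiated, R radiated). Colour gives log2 of the CPM over the mean non-radiated CPM, clipped at ±2 (red above, blue below). Columns NR 2 and R 2 are blue for most matrix genes, while Comp, Matn1, Matn4 and Cilp2 are red in each of the 3 radiated columns.

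Comp, the cartilage oligomeric matrix protein, which binds collagen fibrils in growth plate, tendon and ligament, was at 30.1, 21.4 and 26.2 CPM in non-radiated libraries 1, 2 and 3 and at 49.7, 38.9 and 44.3 CPM in radiated libraries 1, 2 and 3. Each radiated library was above each non-radiated one, and within numbers the log2 difference was 0.72, 0.86 and 0.75. Comp (ENSMUSG00000031849, chromosome 8, 70373548 to 70382065) rose 1.70-fold, with a log2 fold change of 0.77 (SE 0.13; adjusted p 0.00705, edgeR). It stayed past the threshold in the 15 alternatives run.

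Matn4, a matrilin that links matrix components and is also made outside cartilage, rose more but from a low level. It was at 0.466, 0.399 and 0.566 CPM without radiation (17, 10 and 24 counts) and at 1.56, 1.72 and 1.86 CPM with it (59, 92 and 83 counts). Matn4 (ENSMUSG00000016995, chromosome 2, 164389393 to 164405160) rose by 1.82 on a log2 scale (SE 0.22; adjusted p 0.00133, edgeR) and remained past the threshold under all 15. It overlaps Rbpjl in the table, which was at a mean of 0.0177 CPM. Its relative Matn1, the classic cartilage matrilin, was near the limit of detection, with 13, 3 and 14 counts against 18, 25 and 23. The groups of Matn1 did not overlap in CPM, and its log2 fold change of 0.78 (SE 0.37) was not called (edgeR adjusted p 0.268). Matn3, a matrilin of the growth plate, had a negative estimate. It was at 12.5, 2.79 and 6.73 CPM without radiation and 2.72, 1.65 and 6.74 CPM with it. Its log2 fold change of -1.004 (SE 0.57; adjusted p 0.358, edgeR) came from the first 2 numbers, since the third pair was equal to within a log2 difference of 0.00418. It was called with library totals alone (log2 fold change -0.91, adjusted p 0.0193), and over all settings its adjusted p ran from 0.0193 to 0.934. The 3 matrilins therefore had estimates of both signs, of which Matn4's was called under TMM.

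Cilp2 and Cilp, secreted proteins of the intermediate layers of articular cartilage that are also made in tendon and meniscus, were higher with radiation in every numbered pair. Cilp2 (ENSMUSG00000044006, chromosome 8, 69880369 to 69887687) was at 0.357, 0.240 and 0.283 CPM without radiation (13, 6 and 12 counts) and at 0.845, 1.37 and 0.762 CPM with it (32, 73 and 34 counts). Its log2 fold change was 1.74 (SE 0.33; adjusted p 0.0127, edgeR). The call was lost without non-radiated library 2 (adjusted p 0.0534) and without both libraries numbered 2 (0.0924), and with the muscle markers as a covariate (0.0717). Cilp (ENSMUSG00000042254, chromosome 9, 65265180 to 65280605) was at 0.933, 0.679 and 0.873 CPM without radiation and at 3.06, 7.92 and 1.05 CPM with it (34, 17 and 37 counts against 116, 423 and 47). Radiated library 2 was far above the others, and radiated library 3 was close to the non-radiated range. The log2 fold change of Cilp was 2.27 (SE 0.62; adjusted p 0.0577, edgeR), and 1.86 with adjusted p 0.0447 with the replicate block. Over all settings its adjusted p ran from 3.26e-12 to 0.478. Without radiated library 2 its log2 fold change was 1.28, and with the muscle markers as a covariate 0.54. Without radiated library 3 it was 2.72 (adjusted p 0.00388).

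Prg4, or lubricin, the lubricant of joint surfaces made by superficial chondrocytes and synovial cells, had the largest estimate of the tested members, with the largest SE. It was at 1.87, 3.23 and 2.08 CPM in the non-radiated libraries and at 10.99, 36.0 and 2.80 CPM in the radiated ones (68, 81 and 88 counts against 416, 1923 and 125). Radiated library 3 lay inside the non-radiated range, so the groups overlapped. Prg4 (ENSMUSG00000006014, chromosome 1, 150449412 to 150466165) differed by 2.83 on the log2 scale (SE 0.76; adjusted p 0.0548, edgeR), and by 2.27 with adjusted p 0.0174 with the replicate block. Over all settings its adjusted p ran from 1.06e-26 to 0.296, and its log2 fold change was 1.54 without radiated library 2 and 0.50 with the muscle markers as a covariate. Without radiated library 3 it was 3.33 (adjusted p 0.00339). Prg4, at a mean of 9.50 CPM, overlaps Tpr in the table, at a mean of 345 CPM.

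Some markers of the tissues that share these genes moved as well, and others did not. The tendon and ligament list (Scx, Tnmd, Mkx, Thbs4, Fmod and Kera) summed to 15.5 to 28.3 CPM in non-radiated and 38.8 to 65.2 CPM in radiated libraries. Fmod made up most of that sum, at 12.9 to 23.6 CPM without and 31.9 to 47.0 CPM with radiation. Of the 6 listed genes 4 were tested, all with positive estimates, and 2 were called higher (background 4.56%). These were Thbs4, by 2.02, and Fmod, by 1.15 on the log2 scale (edgeR adjusted p 0.0165 and 0.0105). Tendon factor Scx was at 0.137 to 0.260 CPM without and 0.343 to 0.449 CPM with radiation. Scx and Mkx had estimates of 0.93 and 0.15 and were not called (edgeR adjusted p 0.187 and 0.747). Tnmd, under the filter, had 3, 3 and 3 counts without and 17, 57 and 5 counts with radiation. Kera was at 0 in non-radiated library 3. The synovial and joint surface list without Prg4 (Has1, Has2, Htra4 and Erg) summed to 26.3 to 29.7 CPM and 28.4 to 33.5 CPM, with Has1 at 0 in non-radiated library 3. Erg, which blood vessels also express, made up most of that sum, at 23.9 to 29.7 CPM over all libraries. Of the 4 genes 3 were tested and 1 was called higher (background 4.56%). It was Htra4, which rose by 1.69 on the log2 scale (SE 0.35; adjusted p 0.0186, edgeR). Htra4 went from 0.559 to 0.661 CPM without to 1.19 to 3.01 CPM with radiation, and was highest in radiated library 2. Has1 was at 0 to 0.0399 CPM without and 0.112 to 0.281 CPM with radiation, with no overlap. Has2 and Erg had estimates of -0.09 and 0.12 and were not called (edgeR adjusted p 0.865 and 0.496). Among the radiated libraries Prg4, Cilp, the tendon list and the muscle list were each highest in library 2 and lowest in library 3. With the muscle markers as a covariate Comp and Matn4 were still called, and the part of tendon and synovium in the values of the 5 genes was not tested.

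**Figure D3:**
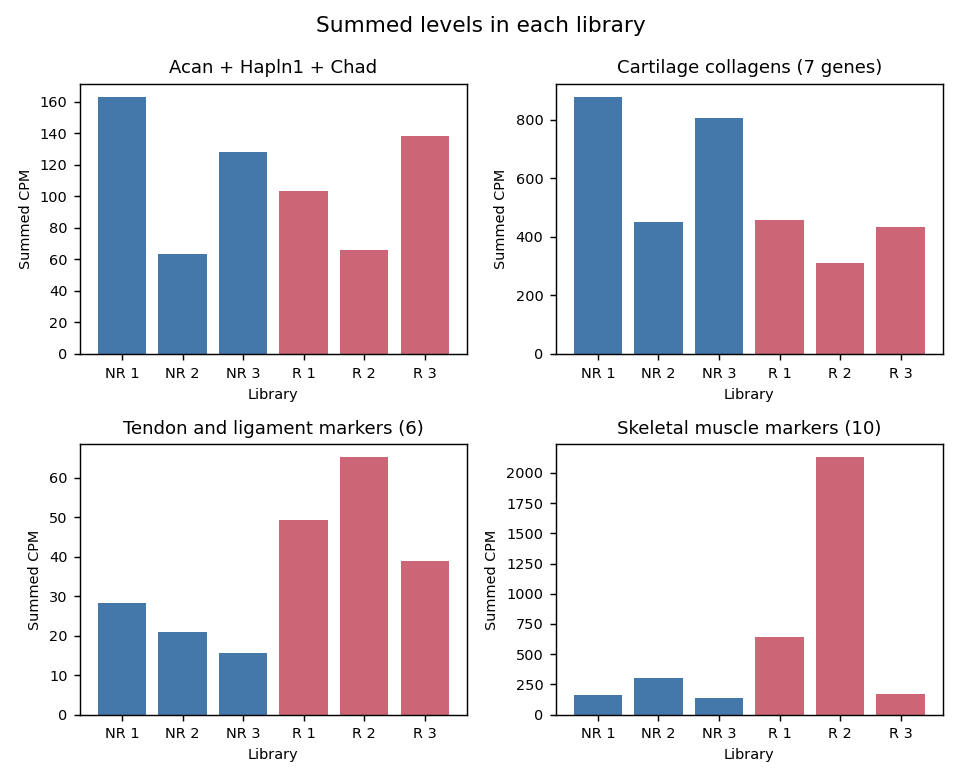
Bars give summed CPM (y axis, from 0) in each library (x axis, NR non-radiated, R radiated) for Acan, Hapln1 and Chad, for 7 cartilage collagens, for 6 tendon and ligament markers and for 10 skeletal muscle markers. Cartilage sums are lowest in the libraries numbered 2 of each group, and radiated library 2 has the highest tendon and muscle sums. Fmod makes up most of the tendon and ligament sum in each library.

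The remaining matrix members were not called. Clec3a, a C-type lectin of cartilage, was at 10.4, 4.91 and 9.46 CPM without radiation and 6.87, 5.06 and 7.44 CPM with it, with a log2 fold change of -0.37 (SE 0.26; adjusted p 0.466, edgeR). Snorc, a small transmembrane proteoglycan of chondrocytes, and Ucma, a secreted protein of immature chondrocytes, had log2 fold changes of -0.47 and -0.53 (edgeR adjusted p 0.538 and 0.465). For both, radiated library 2 was the lowest of the 6, at 1.16 and 0.805 CPM.

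Cytl1, a small secreted protein that is made by chondrocytes and promotes cartilage formation, had the lowest estimate of the 31 tested members and, per kilobase of transcript, the second highest level of the 34 (21.3 CPM per kilobase over all libraries). It was at 28.4, 18.7 and 39.7 CPM in non-radiated libraries 1, 2 and 3 and at 11.5, 9.92 and 16.0 CPM in radiated libraries 1, 2 and 3. The highest radiated library was below the lowest non-radiated one, and each numbered pair differed in the same direction, by -1.30, -0.92 and -1.31 on the log2 scale. Cytl1 (ENSMUSG00000062329, chromosome 5, 37735519 to 37739820) fell by 1.22 on the log2 scale (SE 0.26; adjusted p 0.0207, edgeR). The call held without both libraries numbered 2 (adjusted p 0.00338). It was lost without non-radiated library 1 (0.0632), non-radiated library 3 (0.0530) or radiated library 1 (0.0834), and with the muscle markers as a covariate (log2 fold change -0.79, adjusted p 0.0856). With the replicate block its adjusted p was 0.000253, and over all settings it ran from 0.000110 to 0.0856.

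The other secreted or cellular proteins of this role showed no call. Scrg1, a small secreted protein of differentiating chondrocytes, was at 16.4, 12.4 and 13.7 CPM without radiation and 12.4, 10.6 and 11.3 CPM with it, a log2 fold change of -0.31 (SE 0.12; adjusted p 0.165, edgeR). Mia, a secreted cartilage protein also known as CD-RAP, had nearly equal means of 7.92 ± 3.15 CPM without and 7.75 ± 2.95 CPM with radiation (SD, n = 3 each), and it shares its span with Gm21983, which was at a mean of 31.5 CPM. Susd5 and Scin, an actin-severing protein that platelet-forming and mucosal cells also make, had log2 fold changes of -0.16 and 0.02 (edgeR adjusted p 0.823 and 0.955).

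Of the Sox trio none was called. Sox9 was at 2.36, 1.76 and 1.84 CPM in non-radiated and 1.27, 1.35 and 1.93 CPM in radiated libraries, a log2 fold change of -0.39 (SE 0.22; adjusted p 0.348, edgeR). Sox5 was at 6.64, 5.71 and 6.42 CPM without and 7.95, 7.603 and 7.93 CPM with radiation. Its groups did not overlap, with a log2 fold change of 0.32 (SE 0.11; adjusted p 0.115, edgeR). Sox6, which red cell precursors of the marrow also need, was far more abundant than its partners, at 280.3 to 326 CPM without and 269.8 to 299.5 CPM with radiation, and had the highest level per kilobase of the members (33.0 CPM per kilobase). Its log2 fold change was -0.12 (SE 0.07; adjusted p 0.403, edgeR), and 0.09 with library totals alone. Sox5 overlaps antisense and intronic genes of the table, of which Sox5it is at a mean of 0.746 CPM. The estimates of Sox5 and Sox6 thus had opposite signs under TMM, and whether they differ from each other was not tested.

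Of the other factors, Runx3 (needed for chondrocyte maturation and for T cells) and Trps1 (a GATA-type repressor of the growth plate) had group means that differed little. Runx3 was at 22.6 ± 0.950 CPM without and 22.8 ± 0.750 CPM with radiation (SD, n = 3 each). Trps1 was at 91.6 ± 7.51 CPM and 91.9 ± 4.35 CPM (SD, n = 3 each). Their log2 fold changes were 0.01 and 0.00, each with an SE of 0.07. Foxa2 and Foxa3, factors of hypertrophic chondrocytes, were under the filter. Foxa2 had counts of 5, 4 and 9 without radiation and of 1, 1 and 13 with it. Foxa3 had 21, 3 and 24 counts against 8, 7 and 7. With no filter their log2 fold changes were -0.61 (SE 0.79) and -1.41 (SE 0.51), with edgeR adjusted p of 0.731 and 0.118. Foxa3 passed the filter in 5 of the settings that left libraries out, and without non-radiated library 2 it was called (log2 fold change -1.80, adjusted p 0.0430). Without both libraries numbered 2 its adjusted p was 0.0927, and over its 6 settings it ran from 0.0430 to 0.308.

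In the hedgehog and PTHrP loop, the ligand Ihh had the largest estimate of the 4 genes past the filter. It was at 2.33, 0.998 and 2.38 CPM in non-radiated libraries 1, 2 and 3 (85, 25 and 101 counts) and at 0.977, 0.693 and 1.12 CPM in radiated libraries 1, 2 and 3 (37, 37 and 50 counts). Non-radiated library 2 lay within the radiated range, while each radiated library was below the non-radiated one of its number. Ihh (ENSMUSG00000006538, chromosome 1, 74945315 to 74951672) differed by -1.07 on the log2 scale (SE 0.33; adjusted p 0.0873, edgeR), which was not called, and by -0.99 with adjusted p 0.0266 with the replicate block. Without non-radiated library 2 it was -1.36 (adjusted p 0.0182), and without both libraries numbered 2 the adjusted p was 0.0204. Over all settings the adjusted p ran from 0.0182 to 0.427.

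The receptor and the response genes of the loop had estimates smaller in size than that of Ihh. Ptch1, both the hedgehog receptor and a target of the pathway, was at 54.4, 50.1 and 56.0 CPM without and 49.6, 48.4 and 52.6 CPM with radiation, a log2 fold change of -0.09 (SE 0.06; adjusted p 0.463, edgeR). Gli1, the other target gene, was at 1.34, 0.599 and 1.37 CPM against 1.19, 1.07 and 0.964 CPM, a log2 fold change of -0.08 (SE 0.29; adjusted p 0.915, edgeR). Gli1 overlaps Arhgap9, whose mean of 78.7 CPM is far above that of Gli1 (1.09 CPM). With library totals alone the estimates of Ptch1 and Gli1 were 0.09 and 0.07. Pth1r, which osteoblasts also express, was at 23.7, 20.0 and 26.5 CPM without and 21.7, 15.9 and 19.3 CPM with radiation. Its log2 fold change was -0.31 (SE 0.13; adjusted p 0.222, edgeR). Osteoblast markers (10 genes) summed to 8171 to 12445 CPM in non-radiated and 6021 to 7826 CPM in radiated libraries. Col1a1 and Col1a2, at means of 4326 and 3949 CPM over all libraries, made up most of that sum. Of the 10 genes 9 had negative estimates and 3 were called lower, where 3.24% of all tested genes were. Alpl had a positive estimate of 0.08 (adjusted p 0.865, edgeR). The part of osteoblasts in the value of Pth1r was not tested. Pthlh had 2, 0 and 1 counts without and 1, 6 and 6 counts with radiation, which is under the filter. Tested without the filter, Pthlh had an estimate of 1.61 (SE 1.06; adjusted p 0.521, edgeR).

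Beyond the members, 18 of 20 other genes of the hedgehog and PTHrP pathways were tested, and 1 was called (background 7.8%). It was Cdon, a co-receptor for hedgehog ligands that muscle precursors also use, which rose by 0.74 on the log2 scale (SE 0.11; adjusted p 0.00504, edgeR). It was at 5.66 to 6.69 CPM without and 9.39 to 11.03 CPM with radiation. The median log2 fold change of the 18 was 0.15, with 12 positive and 6 negative estimates. Of all tested genes 49.5% had a negative one.

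Fgfr3 and Frzb, a secreted Wnt antagonist of articular and growth plate cartilage, were not called. Fgfr3 was at 11.4, 8.54 and 10.6 CPM without and 10.8, 7.15 and 8.36 CPM with radiation, a log2 fold change of -0.22 (SE 0.17; adjusted p 0.503, edgeR). Frzb had a log2 fold change of -0.28 (SE 0.32; adjusted p 0.688, edgeR), and its 2 lowest libraries were those numbered 2.

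Of the sulfation enzymes, Chst11 fell by a small amount, while Papss2 was not called with group alone but was with the replicate block. Chst11, which adds sulfate at carbon 4 of chondroitin, was at 73.6, 70.9 and 75.0 CPM in non-radiated and 63.1, 59.0 and 62.1 CPM in radiated libraries. The groups did not overlap and each pair differed by a similar step, -0.22, -0.27 and -0.27 on the log2 scale. Chst11 (ENSMUSG00000034612, chromosome 10, 82985498 to 83195900) fell by 0.25 on the log2 scale (SE 0.05; adjusted p 0.0197, edgeR). This small change was not called when libraries were scaled by totals alone (log2 fold change -0.07, adjusted p 0.885), under which the median of all genes moved to 0.19. It was also not called without non-radiated library 1, non-radiated library 3, radiated library 1 or radiated library 2 (adjusted p 0.0521 to 0.0742), nor without both libraries numbered 2 (0.145) or with the muscle markers as a covariate (0.128). Papss2, which makes the sulfate donor PAPS in cartilage, was at 32.4, 25.3 and 27.2 CPM without and 21.6, 17.8 and 23.8 CPM with radiation. Its groups did not overlap. Papss2 (ENSMUSG00000024899, chromosome 19, 32620005 to 32667187) differed by -0.43 on the log2 scale (SE 0.12; adjusted p 0.0725, edgeR), with adjusted p 0.0274 with the replicate block and 0.00557 to 0.706 over all settings. It was called without radiated library 3 (adjusted p 0.0417).

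**Figure D4:**
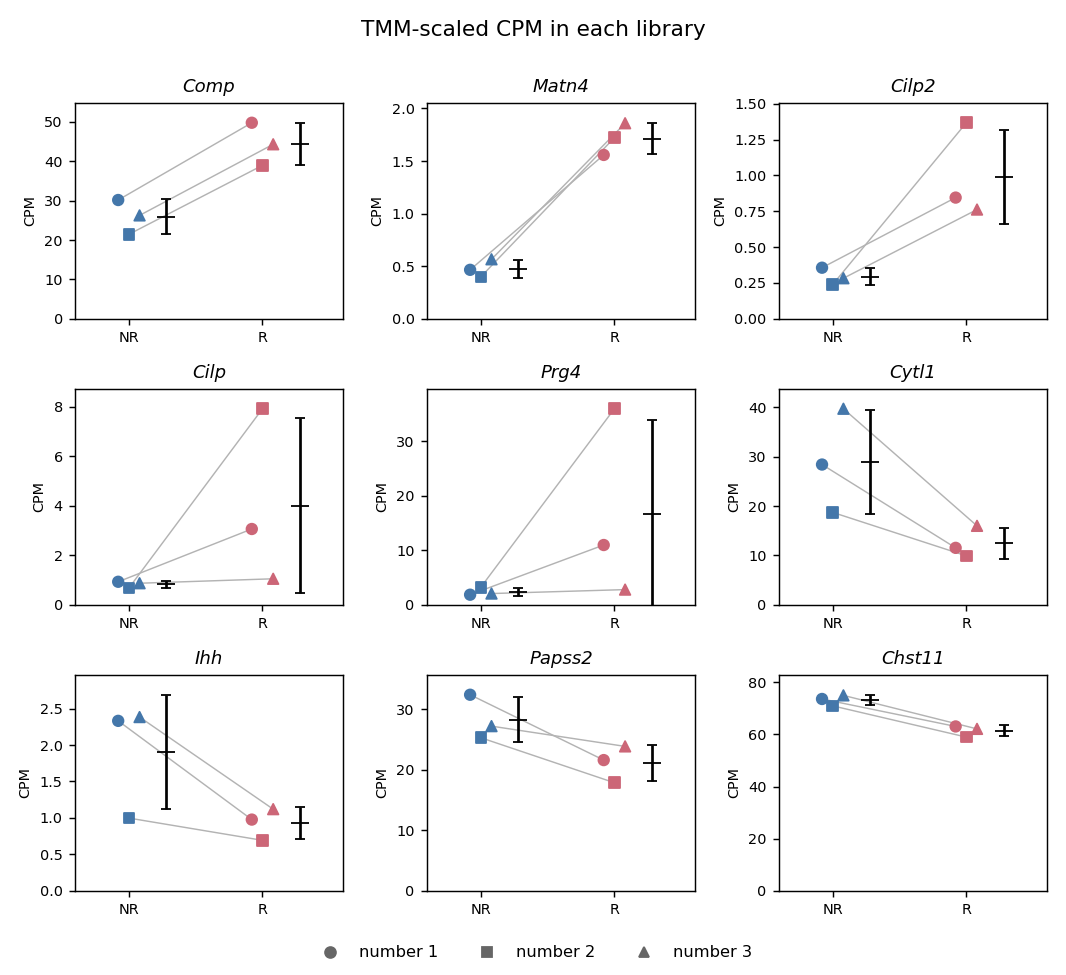
CPM (y axis, from 0) in each library for the 9 members called in the fit with or without the replicate block. Symbols give the replicate number, grey lines join libraries of the same number, and black marks give the mean and SD of each group (NR non-radiated, R radiated, n = 3 each; the lower bar of Prg4 is clipped at 0). Comp, Matn4, Cilp2, Cilp, Cytl1, Papss2 and Chst11 show no overlap between groups, while Prg4 and Ihh do overlap.

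Of 21 other genes that build sulfated proteoglycans, all tested, 1 was called higher (background 4.56%) and 2 lower (background 3.24%). Their median log2 fold change was -0.04. Chst3, which adds sulfate at carbon 6 of chondroitin, rose by 0.89 on the log2 scale (SE 0.09; adjusted p 0.000406, edgeR), from 58.7 to 71.5 CPM in non-radiated to 113 to 135 CPM in radiated libraries. Csgalnact1 and Csgalnact2, which start chondroitin chains, fell by 0.49 and 0.36 (edgeR adjusted p 0.00838 and 0.00582). With the replicate block 3 genes were called higher (background 5.51%) and 3 lower (background 3.39%), Chpf, Chsy3 and Dse being the additions. These enzymes act in many cell types of bone and marrow.

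The cartilage collagens give the background of fibres in which the members sit. All 7 had negative estimates (median -0.68 on the log2 scale), as did 49.5% of all tested genes. Of the 7, 1 was called lower (background 3.24%), and 3 were with the replicate block (background 3.39%). Col2a1, the main fibre of cartilage, was at 73.1 to 146 CPM without and 70.9 to 101 CPM with radiation (edgeR adjusted p 0.446). Col10a1, a marker of hypertrophic chondrocytes, was at 139, 13.3 and 98.9 CPM against 16.9, 13.0 and 21.3 CPM (edgeR adjusted p 0.0587, and 0.0364 with the block). The hypertrophic cartilage list (Col10a1, Mmp13, Spp1, Ibsp and Alpl) summed to 1297 to 2122 CPM without and 1309 to 1677 CPM with radiation. Of its 5 genes 0 were called (background 7.8%), and 2 were called lower with the block (background 3.39%). Mmp13 and Alpl had positive estimates of 0.11 and 0.08, and Spp1 and Ibsp negative ones of -0.31 and -0.38. Col11a2, the called collagen, fell by 1.15 on the log2 scale (SE 0.19; adjusted p 0.00600, edgeR). Over all libraries Col11a1 and Col11a2 had means of 213 and 145 CPM, above the 102 CPM of Col2a1. Of the 10 osteoblast markers 9 also had negative estimates, against 49.5% of all tested genes. The part of osteoblasts in the value of Col11a2 was not tested. Non-radiated library 2, low in the matrix members, had a Col10a1 level within the radiated range.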

How the data were processed

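RNA-seq gene counts from 6 mouse femur libraries were analysed. Per the submitters' processing notes, bcl2fastq, STAR 2.5.2b, Subread and featureCounts were used on mm10. The annotation, the filters and the use of strand are not given in the sources used here. The deposited counts are whole numbers per gene and library, per the file headers. The deposited RPKM values, made by the authors, were not used, nor was another scaling by length, except that CPM was divided by the deposited gene length to compare levels between genes.

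For the test, edgeR 4.0.16 (R 4.3.3) was applied to the whole table. The filter filterByExpr (minimum count 10, minimum total 15) left 18757 of 43346 genes, TMM set the scaling, and the quasi-likelihood functions glmQLFit and then glmQLFTest compared the groups with no other term. Adjustment was by Benjamini-Hochberg over all tested genes, with calls at an adjusted p under 0.05. Each SE was obtained as the size of the log2 fold change over the root of F. The test was checked on simulated data.

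The rule that names the members uses no measured value, but the members and lists were chosen with earlier results of these data known. Members were described in full if called with or without the replicate block, if their groups did not overlap, if among the 6 largest changes or the 6 highest levels per kilobase, or if a main signalling gene or of the Sox trio. Acan, Hapln1 and Matn3 were added after their values were seen, and the rest are given in brief.

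Libraries of the same number deviated together (correlation across genes 0.166, 0.277 and 0.187 for numbers 1, 2 and 3, and at most -0.00824 for different numbers). The numbers were therefore taken to pair the libraries in the replicate block, while the fit with group alone leaves this pairing out. The pairing comes from this check, not from the labels. Deviations from a group mean cancel out over the group, so positive values for the same number pull those for different numbers down. The latter are thus no separate support for the pairing. The check cannot tell a shared mouse from shared handling. Alternatives were the replicate block, scaling by DESeq2 1.42.0 or by library totals only, the Wald test of DESeq2, limma-voom (limma 3.58.1), no filter or one at 1 CPM on average, and leaving out each library. Added after seeing the data were the muscle markers as a covariate and leaving out both libraries numbered 2. Depth was 34034251 to 48708383 counts per library.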

Additional observations from a re-analysis of the deposited data

How the results depend on the processing

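Comp and Matn4 stayed past the threshold under all 15 alternatives run. The calls of Cilp2, Cytl1 and Chst11 were lost in 3, 4 and 7 alternatives, and Cilp, Prg4, Ihh and Papss2 became calls in 5, 5, 5 and 4. Matn3 became a call in 1 (library totals alone) and Foxa3 in 1 (without non-radiated library 2). With the replicate block 5 members were called higher and 4 lower (5.51% and 3.39% of all genes). In that fit 6 proteoglycan synthesis genes and 3 collagens were called. DESeq2's Wald test also gave 5 and 4 members (6.11% and 4.9% of all genes) and 7 proteoglycan synthesis genes. No filter on low counts gave 5 and 4 members (4.49% and 2.71% of all genes), 7 proteoglycan synthesis genes, 3 collagens and 1294 genes called higher over the table.

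With library totals alone 5 members were called higher (4.55% of all genes) and 2 lower (0.778%, or 146 genes of the table). Of all calls 85.4% were higher (58.5% with TMM), and of the member calls 71.4% (60.0% with TMM). The members' median was -0.0312, with 1 proteoglycan synthesis gene and 2 collagens called. Under that scaling Mia, Sox6, Ptch1 and Gli1 turned positive, at 0.0765, 0.0857, 0.0892 and 0.0687. DESeq2 size factors called 2 collagens, with 4.43% of all genes called higher and 3.45% lower. Trps1 was at -0.00575 with these size factors and at -0.00614 by the Wald test, and Scin at -0.00869 by limma-voom.

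With muscle markers as a covariate 0 members were called lower, against 2.49% of all genes, and the median was 0.033. Acan, Hapln1, Chad, Snorc, Ucma, Mia, Susd5 and Frzb turned positive, at 0.393, 0.429, 0.186, 0.207, 0.00504, 0.566, 0.279 and 0.208, and Runx3 was at -0.00979. At an unadjusted p under 0.05 by edgeR with group alone, 12 members of 31 differed (background 21.5%). The cause of these shifts was not tested.

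Without both libraries numbered 2, 779 genes were called over the table, 448 higher and 331 lower, and 5 collagens. Runx3 was then at -0.0164 and Trps1 at -0.0368.

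Leaving out 1 library at a time gave 764 to 1376 genes called, 433 to 917 higher and 328 to 602 lower. Members called higher ranged from 2 to 5 (2.23% to 4.85% of all genes) and lower from 0 to 4 (1.71% to 3.17%). The median of the tested members ranged from -0.354 to -0.0536. Called proteoglycan synthesis genes ranged from 3 to 5, hedgehog and PTHrP genes from 1 to 2 and collagens from 1 to 4. Estimates that changed sign ranged from -0.443 to 0.113 for Acan, -0.715 to 0.206 for Hapln1, -0.346 to 0.235 for Mia, -0.444 to 0.152 for Susd5, -0.148 to 0.142 for Scin, -0.0172 to 0.0444 for Runx3, -0.0713 to 0.0571 for Trps1 and -0.354 to 0.0947 for Gli1. Members under about 1 CPM, such as Matn1 and Cilp2, rest on few counts, which limits their precision.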

Other observations

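Because the core matrix genes differed so much between libraries, each tested member was also expressed relative to the summed CPM of Acan, Hapln1 and Chad in its own library, a scale chosen after the values were seen and given with no test. The sum was 163, 63.2 and 128 CPM in non-radiated libraries 1, 2 and 3 and 103, 65.7 and 138 CPM in radiated libraries 1, 2 and 3. Of the 28 members so expressed, 2 had lower and 3 had higher ratios in all radiated than in all non-radiated libraries. These 5 are 17.9% of the members, against 2.8% of the 18754 tested genes other than the 3 of the core sum. The shares are not comparable as evidence, since a gene that does not follow the core sum takes on its spread on this scale.

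Ihh was at 1.43%, 1.58% and 1.86% of the core sum without radiation and at 0.947%, 1.05% and 0.810% with it, so its groups, which overlap in CPM, did not overlap on this scale. Cytl1 was at 17.4%, 29.6% and 31.0% without and at 11.2%, 15.1% and 11.6% with radiation. The higher ratios were those of Matn1, Matn4 and Cilp2. Matn4 was at 0.286%, 0.632% and 0.442% against 1.51%, 2.62% and 1.35%. Comp overlapped by this measure, at 18.5%, 33.9% and 20.5% against 48.2%, 59.2% and 32.0%, as did Chst11 and Papss2, which cells other than chondrocytes also make.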
